A study of Mus musculus with 6 samples.

Results

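Rab GTPases are small membrane switches, and their transcripts were measured here by RNA sequencing in monocytes of mice with nephrotoxic nephritis. The 57 genes described are all rows of the count table whose symbol is Rab followed by a number, with or without a letter, out of 23955 gene rows. Effectors, exchange factors and other Rab partners carry other names and are not members. Of the 57, 40 passed the filter on low counts and were tested, and 17 were not. The filter can pass a gene through the group in which it is high.

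Monocytes sorted from the kidney gave 3 libraries (replicates 7, 8 and 22) and cells of spleen and bone marrow gave 3 (replicates 2, 24 and 26). The kidney samples are named double_pos and the others double, with no marker given. All came from wild-type mice of the strain labelled C5/Bl6, aged 8 to 10 weeks, in which nephrotoxic nephritis, an antibody-driven injury of the glomerulus, had been induced, and which were killed on day 13. The labels name 10 mice for the series and do not say whether a library is 1 animal or a pool, so a p-value reflects the spread between libraries, which may be technical. No library came from healthy mice, and isolation is described for the kidney only, so tissue, disease and handling cannot be told apart.

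A Rab protein bound to GTP sits on a particular membrane and recruits tethers, motors and lipid enzymes that move and dock vesicles. Exchange factors load GTP, GTPase activating proteins end the signal, and GDI proteins carry the lipid-modified Rab back through the cytosol. In monocytes and macrophages Rab proteins direct the uptake and ripening of phagosomes, receptor recycling, antigen handling and the release of granules. Each step has its own members, and the genes below are ordered by the step with which they are best known to act.

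Rab transcripts took almost the same share of each library. They made up 0.314%, 0.311% and 0.304% of the counts in kidney replicates 7, 8 and 22, against 0.297%, 0.318% and 0.319% in spleen and marrow replicates 2, 24 and 26, so the groups overlapped. The 9 members above a mean of 100 CPM, the count scaled to a common library size, were Rab1, Rab11a, Rab14, Rab1b, Rab24, Rab2a, Rab32, Rab4b and Rab8a. They held between 70.0% and 71.5% of the Rab counts in the kidney libraries and between 72.9% and 74.2% in the spleen and marrow libraries. The 2 largest roles overlapped between the groups. Genes of the endoplasmic reticulum and Golgi took 32.03% to 34.0% of Rab counts in kidney libraries and 32.9% to 33.2% in spleen and marrow libraries. Recycling genes took 28.3% to 32.4% in kidney and 28.9% to 30.6% in spleen and marrow. Among the smaller roles the shares of 2 did not overlap, and those of the rest did. Regulated secretion took 0.698% to 1.22% in kidney, against 1.46% to 1.52% in spleen and marrow, and lysosome-related organelles took 4.39% to 4.89% in kidney, against 5.33% to 5.41% in spleen and marrow. Most lysosome-related counts came from Rab32, which overlapped between the groups in CPM, while Rab27a was lower in every kidney library. No test was run on these shares, and no like figure for other gene groups stands beside them.

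Of the 40 tested members, 3 rose in kidney (Rab20, Rab34 and Rab12) and 1 fell (Rab27a), by edgeR's quasi-likelihood test with Benjamini-Hochberg adjustment over all genes tested. Over all 10626 genes tested, 13.7% passed, 7.83% higher and 5.90% lower in kidney. The members' 10.0% is near that background, and nothing is read from it about the family. An unadjusted p under 0.05 was reached by 9 of the 40 members, against 27.9% of all genes tested. The groups did not overlap for 16 members, 8 higher and 8 lower in kidney, which is 40% of those tested. Over all genes tested 37.9% did not overlap, 19.2% higher and 18.8% lower. Besides the called genes, the members without overlap were Rab5c, Rab10, Rab11a, Rab22a and Rab39, higher in kidney. Those lower in kidney were Rab1, Rab3d, Rab4b, Rab14, Rab24, Rab36 and Rab44. The median size of the log2 fold change, in either direction, was 0.32 over the 40 members and 0.45 over all genes tested. For 20 of the 36 members without a call the 95% interval of the log2 fold change lay within 2-fold in both directions, and for the other 16 it reached further. The share of all genes that passed moved widely with the setting, and counts of Rab calls under a setting are to be read against its share. It was 20.3% with DESeq2, 13.6% with library size only, 13.5% with RLE size factors, 9.39% with no filter and 14.6% with a filter of 1 CPM. It was 14.8% with limma-voom, 22.6% with sample weights, 10.3% on log2(FPKM + 1), 10.6% on log2(FPKM + 0.1) and 4.43% with spleen and marrow replicates 24 and 26 summed. Leaving out kidney replicate 7, 8 or 22 gave 12.6%, 13.9% and 25.3%, and dropping spleen and marrow replicate 2, 24 or 26 gave 4.41%, 4.38% and 3.90%.

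**Figure D1:**
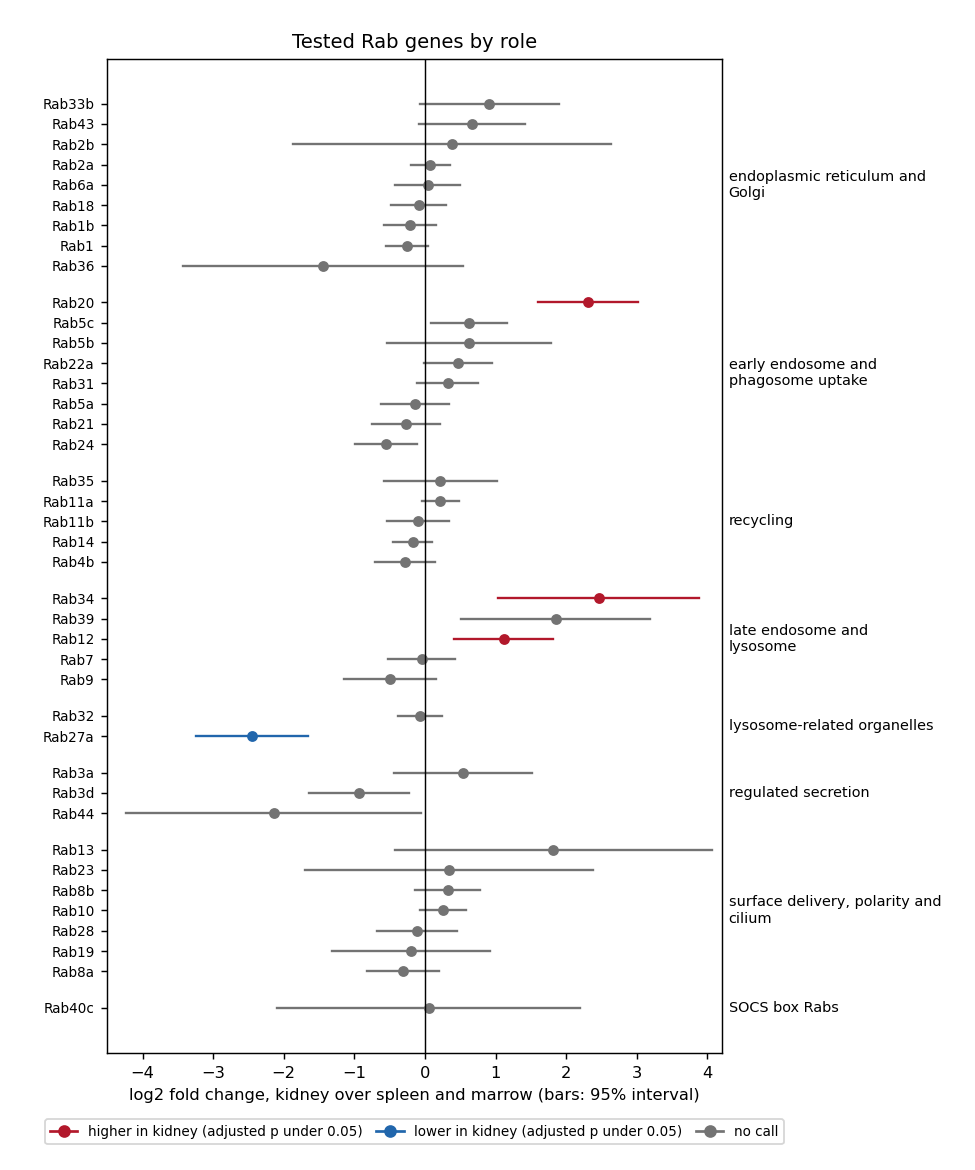
Log2 fold change of the 40 tested Rab genes, kidney over spleen and marrow, with 95% intervals from the edgeR fit, grouped by role. Rab20, Rab34 and Rab12 lie to the right and Rab27a to the left as the 4 genes that passed, while abundant members such as Rab2a and Rab32 sit close to 0.

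Library depth and cell markers bear on these values. The smallest library, kidney replicate 22, held 3492391 counts and the largest, spleen and marrow replicate 26, held 9727489, and 3 counts correspond to 0.881 CPM in the first and 0.322 CPM in the second. Kidney replicate 22 had no count in 21 of the 57 Rab rows, against 4 to 9 rows in each other library. The shared monocyte markers (7 genes, among them Csf1r, Cd14 and Itgam) were above 0 in every library. Lyz2, which encodes lysozyme, made up most of their sum and fell, with 32061, 30678 and 29441 CPM in kidney libraries 7, 8 and 22, against 36591, 49527 and 53871 CPM in spleen and marrow replicates 2, 24 and 26. The other 6 summed to 3820, 2954 and 3113 CPM in kidney, against 1706, 1850 and 1902 CPM in spleen and marrow, and 4 of them rose. The 8 resident macrophage markers all rose in kidney. They summed to 34126, 25142 and 20452 CPM in kidney libraries 7, 8 and 22, against 1583, 2987 and 3318 CPM in spleen and marrow, mostly from Apoe. C1qa, another of them, stood at 700, 901 and 770 CPM in kidney, against 3.22, 2.33 and 2.57 CPM in spleen and marrow. The part of macrophage transcripts in the Rab differences was not tested. Since these are bulk samples, fewer cells of a type and less RNA per cell cannot be told apart.

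The Rabs of the early endosome and of uptake included the clearest rise. Rab20, which acts on phagosomes and macropinosomes as they mature, stood at 28.6, 37.8 and 21.4 CPM in kidney libraries 7, 8 and 22, against 6.55, 5.20 and 6.002 CPM in spleen and marrow replicates 2, 24 and 26. Every kidney library was above every spleen and marrow library. Its mean was 29.3 ± 8.20 CPM in kidney, against 5.92 ± 0.678 CPM in spleen and marrow (SD, n = 3 each). That is a 4.95-fold rise, with a log2 fold change of 2.31 ± 0.30 (SE) and an edgeR adjusted p of 0.00332. Its call held in all 16 alternatives, with adjusted p of at most 0.0334 and log2 fold changes between 1.90 and 2.47. By the authors' FPKM, a level per transcript length, Rab20 ranked 11 among the 57 members in kidney and 23 in spleen and marrow, though its FPKM was 1.86 times higher than counts per transcript length give, relative to the median gene. A non-coding gene on the opposite strand, E230013L22Rik, overlaps its exons in GENCODE M21, and the library chemistry does not mark strand.

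The RefSeq promoter window of Rab20 is shown because this gene and Rab27a are the members called under every alternative. It runs from 250 bases before to 50 after the start, on the minus strand at chr8:11478591-11478890 of GRCm38.p6, and capitals mark CACGTG, the core of the E-box bound by helix-loop-helix factors.
Rab20: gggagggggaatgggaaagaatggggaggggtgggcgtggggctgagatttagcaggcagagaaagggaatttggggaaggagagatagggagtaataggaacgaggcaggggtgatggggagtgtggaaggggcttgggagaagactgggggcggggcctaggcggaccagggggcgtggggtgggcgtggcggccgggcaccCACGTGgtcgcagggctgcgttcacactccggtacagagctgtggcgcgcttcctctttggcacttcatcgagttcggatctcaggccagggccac
The letters CACGTG, which read the same on both strands, begin at base 205 of the window. The other motif searched on both strands was GGAAGT, a core bound by ETS factors such as PU.1, and it was absent from this window. Of 32851 promoter windows in the table, 7.15% hold CACGTG and 23.8% hold GGAAGT. Of the 58 windows of 46 Rab genes, 10.3% hold CACGTG and 25.9% hold GGAAGT, close to those shares. A match is a description of the sequence only.

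The other uptake Rabs differed less between the groups. Rab5c, 1 of the 3 forms of the early endosome organiser Rab5, stood at 37.3, 35.5 and 54.0 CPM in kidney, against 28.5, 23.7 and 29.6 CPM in spleen and marrow. The groups did not overlap, but the gene missed the threshold (log2 fold change 0.63 ± 0.23, edgeR adjusted p = 0.124). For Rab5a the log2 fold change was -0.14 and for Rab5b 0.63, neither called. Rab22a and Rab31, relatives that act at early and sorting endosomes, had 0.46 and 0.32, and Rab21, of integrin uptake, had -0.27. Rab24, linked to autophagy, stood at 177, 138 and 112 CPM in kidney, against 189, 220 and 217 CPM in spleen and marrow, without overlap. Its log2 fold change of -0.55 ± 0.19 missed the threshold (edgeR adjusted p = 0.0954), and it passed in 3 of 16 alternatives, whose adjusted p ran from 0.0229 to 0.270. Exons of Rab24 overlap those of Prelid1 on the opposite strand.

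Late endosome and lysosome Rabs gave 2 more rises, both with less support than that of Rab20. Rab34, which acts in macropinocytosis and in placing lysosomes, stood at 2.49, 4.68 and 2.64 CPM in kidney libraries 7, 8 and 22, against 0.689, 0.410 and 0.643 CPM in spleen and marrow replicates 2, 24 and 26. The groups were well apart, but the gene rested on 67 counts in all kidney libraries and 15 in all spleen and marrow libraries. It passed the filter on low counts through the kidney libraries only, the group in which it is high. The fitted log2 fold change was 2.46 ± 0.61 (edgeR adjusted p = 0.0359). The call held in 7 of 16 alternatives, with adjusted p up to 0.200. It was lost without kidney replicate 8 (adjusted p = 0.0815) and without spleen and marrow replicate 2, 24 or 26 (edgeR adjusted p = 0.164, 0.200 and 0.197). On log2(FPKM + 1) the change was 0.68 and on log2(FPKM + 0.1) it was 1.64, scales that shrink low genes. The call was lost on both, and also with no filter, with limma-voom and with spleen and marrow replicates 24 and 26 summed.

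Rab12, which sends transferrin receptor to degradation and takes part in autophagy, stood at 14.8, 21.2 and 17.6 CPM in kidney, against 7.12, 10.1 and 7.503 CPM in spleen and marrow. Every kidney library was again the higher. Its log2 fold change was 1.12 ± 0.30, a 2.17-fold rise, with an edgeR adjusted p of 0.0474 that lies just under the threshold. It passed in 6 of 16 alternatives, with adjusted p from 0.00853 to 0.219. Leaving out kidney replicate 7 or 8 took the edgeR adjusted p to 0.0505 and 0.107. With spleen and marrow replicate 2, 24 or 26 dropped it was 0.197, 0.122 and 0.219.

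Rab39, which acts on phagosomes and autophagosomes, stood at 2.49, 3.79 and 2.64 CPM in kidney, against 0.919, 0.547 and 0.965 CPM in spleen and marrow. The groups did not overlap, yet it missed the threshold (log2 fold change 1.85 ± 0.58, edgeR adjusted p = 0.0742). Like Rab34, it entered the test through the kidney libraries only. It passed without kidney replicate 22 (0.0273), while its adjusted p over all alternatives ran from 0.0262 to 0.319. Rab7, the Rab that carries endosomes and phagosomes to fusion with lysosomes, stood at 35.7, 48.3 and 46.1 CPM in kidney, against 38.1, 45.1 and 50.9 CPM in spleen and marrow. The groups overlapped, and its 95% interval ran from -0.52 to 0.43 on the log2 scale. Rab9, which returns receptors to the Golgi, had a log2 fold change of -0.50 with an interval from -1.14 to 0.15.

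The fall was in Rab27a, which docks lysosome-related organelles, secretory granules and exosome carriers at the cell surface. It stood at 6.40, 4.04 and 2.94 CPM in kidney libraries 7, 8 and 22, against 23.7, 26.8 and 24.9 CPM in spleen and marrow replicates 2, 24 and 26. All kidney libraries were far below all spleen and marrow libraries. Its mean was 4.46 ± 1.77 CPM in kidney, against 25.1 ± 1.59 CPM in spleen and marrow (SD, n = 3 each). On the log2 scale it fell by 2.46 ± 0.34 (SE) with edgeR adjusted p = 0.00425. The call held in all 16 alternatives, with adjusted p of at most 0.0364 and log2 fold changes from -2.80 to -1.43. In FPKM rank among the members, Rab27a was 39 in kidney and 24 in spleen and marrow. Its relative Rab27b had 2 counts in all kidney libraries and 3 in all spleen and marrow libraries. A processed pseudogene, Gm27186, overlaps its exons in the annotation.

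**Figure D2:**
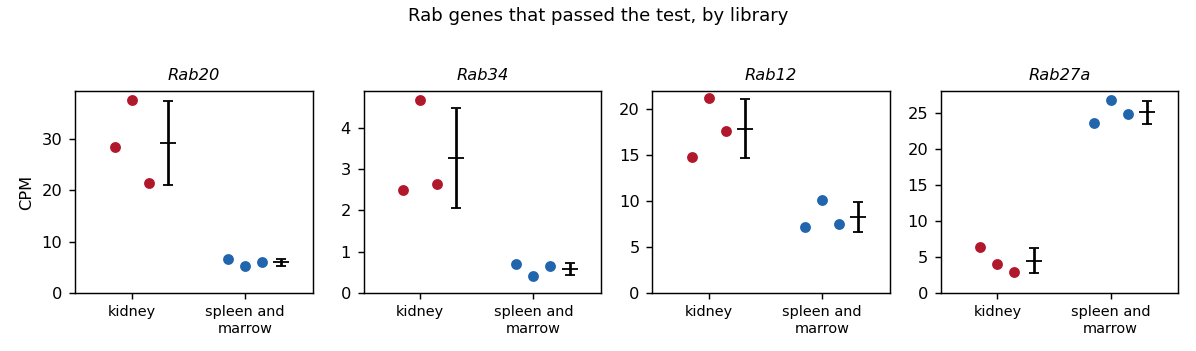
CPM of the 4 Rab genes that passed the test, each point 1 library (kidney in the order 7, 8, 22 and spleen and marrow in the order 2, 24, 26), with mean and SD beside them (n = 3 each). In all 4 panels the 2 groups are separate, with Rab20, Rab34 and Rab12 higher and Rab27a lower in kidney.

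RefSeq gives Rab27a 2 promoter windows on the plus strand of chromosome 9 in GRCm38.p6, printed as the counterpart of Rab20, at chr9:73044560-73044859 and chr9:73063898-73064197. Capitals mark CACGTG and GGAAGT.
Rab27a, first start: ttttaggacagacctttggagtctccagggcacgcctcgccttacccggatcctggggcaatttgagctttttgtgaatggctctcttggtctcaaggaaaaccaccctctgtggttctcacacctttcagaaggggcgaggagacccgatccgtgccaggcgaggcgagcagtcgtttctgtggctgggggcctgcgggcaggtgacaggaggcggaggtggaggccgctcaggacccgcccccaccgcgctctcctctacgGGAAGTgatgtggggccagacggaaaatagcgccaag
Rab27a, second start: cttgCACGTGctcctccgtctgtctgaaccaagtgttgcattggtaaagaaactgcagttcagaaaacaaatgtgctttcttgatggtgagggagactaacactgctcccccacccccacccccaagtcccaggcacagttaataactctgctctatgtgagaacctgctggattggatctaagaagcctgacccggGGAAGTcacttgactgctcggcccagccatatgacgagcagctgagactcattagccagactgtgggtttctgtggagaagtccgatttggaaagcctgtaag
The first holds GGAAGT at base 264 and no CACGTG. The second holds CACGTG at base 5 and GGAAGT at base 198. The windows of Rab12 and Rab34 held neither motif.

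Granulocyte, mast cell and basophil transcripts also differed between these libraries, and granulocytes and mast cells use Rab27a for granule release. The 9 neutrophil and precursor markers with a row summed to 1078, 4280 and 43751 CPM in kidney libraries 7, 8 and 22, against 25187, 29543 and 30839 CPM in spleen and marrow, and the groups overlapped. The sum is carried by S100a8, S100a9, Ngp and Camp, whose groups overlapped. The genes of primary granules were lower in every kidney library than in every spleen and marrow library. Among them Prtn3, which encodes proteinase 3, stood at 30.1, 39.7 and 109 CPM in kidney, against 1171, 627 and 669 CPM in spleen and marrow. Elane, which encodes neutrophil elastase, stood at 2.37, 25.7 and 245 CPM in kidney, against 1727, 1078 and 1162 CPM in spleen and marrow. Prtn3 and Ctsg were the 2 that fell, while Elane and Mpo missed the threshold (edgeR adjusted p = 0.0868 and 0.0607). The 5 mast cell and basophil markers summed to 0.593, 6.95 and 5.29 CPM in kidney, against 50.6, 90.8 and 91.7 CPM in spleen and marrow, and 3 of the 5 fell. The 3 were Fcer1a, Cpa3 and Mcpt8. Cpa3 was at 0 in every kidney library, as was Ms4a2, which was not tested. Gata2, also not tested, went the other way in kidney replicate 8 and made up most of the sum there. It stood at 0.474, 6.57 and 0 CPM in kidney, against 0.689, 0.684 and 0.965 CPM in spleen and marrow. The part of these cells in the Rab27a difference was not tested.

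Of the other lysosome-related Rabs, Rab32, which acts in such organelles and in defence against microbes in phagosomes, overlapped between the groups (135, 129 and 149 CPM in kidney, against 138, 141 and 154 CPM in spleen and marrow). Its 95% interval of -0.39 to 0.25 on the log2 scale lay within 2-fold. Its relative Rab38 was not tested, with 21 counts in kidney and 31 in spleen and marrow. Rab32 gave nearly all of the pair's counts, at least 98.5% in each kidney library and at least 99.1% in each spleen and marrow library.

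Of the 3 tested Rabs of regulated secretion none passed the edgeR test after adjustment, 2 had an unadjusted p under 0.05, and DESeq2 called 1, Rab3d. The groups did not overlap for Rab3d and Rab44. Over all genes tested, 27.9% had an unadjusted p under 0.05, DESeq2 called 20.3%, and 37.9% did not overlap. With 3 members, nothing is read from these counts about secretion Rabs as a group. Rab3d, which marks secretory granules, stood at 11.5, 13.1 and 23.5 CPM in kidney, against 30.1, 28.9 and 31.7 CPM in spleen and marrow. Its log2 fold change was -0.93 ± 0.31 (edgeR adjusted p = 0.0872), and without kidney replicate 22 it was -1.32 with adjusted p = 0.00289. Over all alternatives its adjusted p ran from 0.00289 to 0.254, and 6 of 16 passed. Rab44, a large Rab with a calcium-binding part that acts in mast cell granule release, stood at 4.74, 1.01 and 0 CPM in kidney, against 8.50, 10.5 and 8.57 CPM in spleen and marrow. It had a log2 fold change of -2.14 with an interval from -4.23 to -0.05 (edgeR adjusted p = 0.168). Without kidney replicate 7 its log2 fold change was -3.84 and edgeR adjusted p was 0.0354, within a range of 0.0282 to 0.372 over all alternatives. Rab3a, of synaptic vesicle release, had a log2 fold change of 0.54 without a call. Rab37, also known from mast cell secretion, had 1 count in all kidney libraries and 30 in all spleen and marrow libraries, a ratio of 0.0428 (95% exact binomial interval 0.00105 to 0.257, counting error only).

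Within some subfamilies the relatives took different shares in the 2 groups. Rab3a took 40.1%, 30.4% and 38.0% of the counts of Rab3a, Rab3b, Rab3c and Rab3d in kidney replicates 7, 8 and 22, against 15.1%, 18.9% and 17.96% in spleen and marrow replicates 2, 24 and 26. Rab8b, of surface delivery, took 32.7%, 27.1% and 27.2% of the Rab8 counts in kidney and 21.4%, 20.2% and 20.1% in spleen and marrow. Rab5c took 51.3%, 47.4% and 59.0% of the Rab5 counts in kidney and 45.7%, 38.8% and 40.6% in spleen and marrow. In these 3 subfamilies the shares of the 2 groups did not overlap, and no test was run on the shares. Shares within other gene families were not computed, so no background stands beside them. In CPM, a different measure, 37.9% of all genes tested did not overlap between the groups. Nothing is read from these shares about a switch between relatives. A share also moves when only a relative changes. Exons of Rab3a overlap those of Mpv17l2, and exons of Rab5a those of Pp2d1, both protein-coding genes on the opposite strand. As the chemistry does not mark strand, the counts may include reads of those genes. In all, 20 of the 57 members had an exon overlap with another gene. In CPM, Rab3a and Rab8b themselves overlapped between the groups, while Rab3d was lower in every kidney library. Rab11a, of recycling, took 86.3%, 87.6% and 83.4% of the Rab11 counts in kidney and 84.9%, 82.5% and 81.4% in spleen and marrow, with overlap. The Rab1, Rab2 and Rab22a with Rab31 pairs also overlapped, as did every other subfamily but Rab39 with Rab39b. Rab33a took 27.6%, 37.0% and 0% of the Rab33 counts in kidney, against 3.51%, 9.86% and 2.22% in spleen and marrow. Rab4b gave at least 94.3% of the Rab4 counts and Rab6a at least 96.9% of the Rab6 counts in every library. Rab39 gave at least 96.8% of the Rab39 and Rab39b counts in each kidney library, against 75% to 80% in spleen and marrow libraries, a gap that rests on the 1 and 6 counts of Rab39b.

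**Figure D3:**
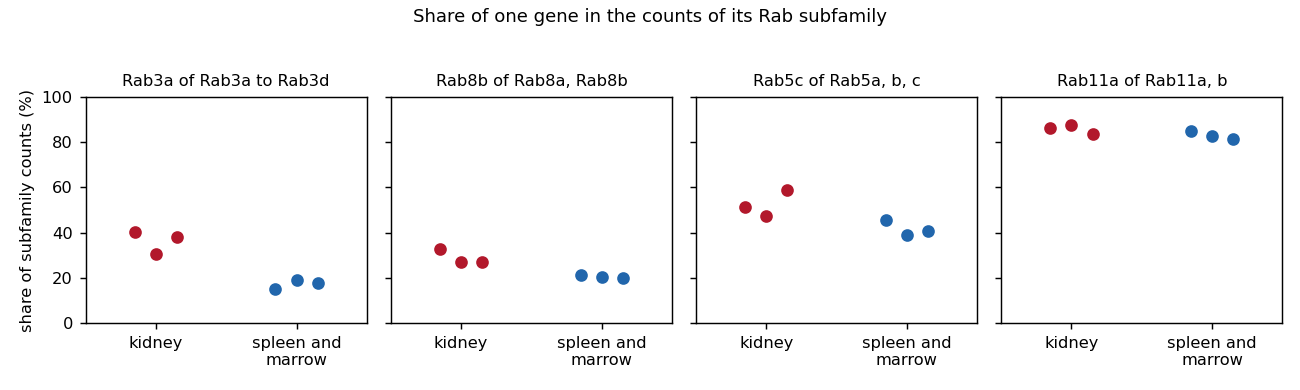
Share of 1 gene in the counts of its Rab subfamily, in percent, each point 1 library. Kidney libraries lie above spleen and marrow libraries for Rab3a, Rab8b and Rab5c, while the Rab11a shares overlap. In CPM, Rab3a and Rab8b themselves overlapped between the groups.

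Abundant recycling and secretory pathway Rabs had small log2 fold changes, and some low members had wide intervals. Rab11a, of the recycling endosome, stood at 370, 393 and 383 CPM in kidney, against 332, 322 and 333 CPM in spleen and marrow. Although the groups did not overlap, the log2 fold change was 0.22 ± 0.11 without a call (edgeR adjusted p = 0.262). Rab14, on phagosomes and recycling endosomes, had -0.17, Rab4b -0.28, Rab11b -0.10 and Rab35, of fast recycling and cell division, 0.22. Rab14, Rab4b and Rab1 also did not overlap between the groups and were lower in kidney, without a call. Rab2a, of traffic between endoplasmic reticulum and Golgi, was the most abundant member per length by FPKM in both groups, at a mean of 118 FPKM in kidney and 119 FPKM in spleen and marrow. Its log2 fold change in counts was 0.08 with an interval from -0.20 to 0.36. Rab1 and Rab1b, which act on the same route, had -0.26 and -0.21, Rab6a, of the Golgi, 0.04 and Rab18, of lipid droplets and the endoplasmic reticulum, -0.09. Rab33b, a partner of the autophagy protein ATG16L1, had 0.91 with an interval from -0.06 to 1.89.

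Rab43, a Golgi Rab that dendritic cells use in cross-presentation, was uneven in kidney, with 39.5, 31.3 and 17.3 CPM in libraries 7, 8 and 22, against 15.7, 18.9 and 21.2 CPM in spleen and marrow. It missed the threshold with all libraries (log2 fold change 0.67, edgeR adjusted p = 0.225) and passed without kidney replicate 22 (0.90, edgeR adjusted p = 0.0150, range over all alternatives 0.0150 to 0.592). Of the surface delivery group, Rab10, which carries TLR4 to the surface of macrophages, had a log2 fold change of 0.25. Rab8a had -0.31 and Rab8b 0.32, and Rab8a passed without kidney replicate 22 (-0.62, edgeR adjusted p = 0.0193, range 0.0193 to 0.711). Rab23 and Rab28, of the cilium, had 0.34 and -0.11, and Rab19 had -0.20. Without kidney replicate 22, 7 Rab genes rose and 3 fell, beside the 25.3% of all genes that passed there.

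Several low members differed mostly between kidney libraries. Rab4a, of fast recycling, stood at 2.84, 8.97 and 0 CPM in kidney libraries 7, 8 and 22, against 0.230, 0.137 and 0 CPM in spleen and marrow replicates 2, 24 and 26. It was not tested with all libraries. Its 95 counts in kidney and 3 in spleen and marrow give a pooled ratio of 40.6 (95% exact binomial interval 13.5 to 201, counting error only). Rab33a, a Golgi relative of Rab33b, stood at 4.03, 5.05 and 0 CPM in kidney, against 0.230, 0.958 and 0.107 CPM in spleen and marrow, a pooled ratio of 9.49 (4.88 to 20.6). Both were tested and called without kidney replicate 22, with log2 fold changes of 5.45 ± 0.87 and 3.41 ± 0.71 (edgeR adjusted p = 0.00473 and 0.0128). In that setting 25.3% of all genes tested passed. Both genes passed its filter only through kidney replicates 7 and 8, where they are high. The calls follow from leaving out the library at 0, so they add no support for a rise. A count of 0 in kidney replicate 22 allows up to 0.881 CPM, below the values in the other kidney libraries.

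Rab13, known from epithelial and endothelial junctions, stood at 2.25, 19.0 and 1.47 CPM in kidney libraries 7, 8 and 22, against 3.45, 1.78 and 1.29 CPM in spleen and marrow. Kidney replicate 8 alone was high. The log2 fold change of 1.82 (edgeR adjusted p = 0.270) was -0.21 without that library and -0.30 on log2(FPKM + 0.1). Endothelial markers, 9 in all, stood at a sum of 28.9, 919 and 20.6 CPM in those kidney libraries, against 11.8, 7.52 and 9.11 CPM in spleen and marrow, and 1 of them rose. Rab4a was also highest in kidney replicate 8. The part of endothelial transcripts in either gene was not tested.

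The 4 tested members Rab2b, Rab36, Rab40c and Rab44 were at 0 in kidney replicate 22 and above 0 in every other library. Rab40c, which carries a SOCS box and joins ubiquitin ligases, stood at 7.47, 6.07 and 0 CPM in kidney, against 4.36, 5.34 and 3.86 CPM in spleen and marrow. Rab2b, a relative of Rab2a, stood at 4.98, 8.21 and 0 CPM in kidney, against 2.41, 4.51 and 3.54 CPM in spleen and marrow. Both had groups that overlapped, with intervals from -2.09 to 2.199 for Rab40c and from -1.86 to 2.64 for Rab2b on the log2 scale. Rab36, of the Golgi, had a log2 fold change of -1.44 with an interval from -3.43 to 0.54. These wide intervals leave the differences undetermined at this depth.

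**Figure D4:**
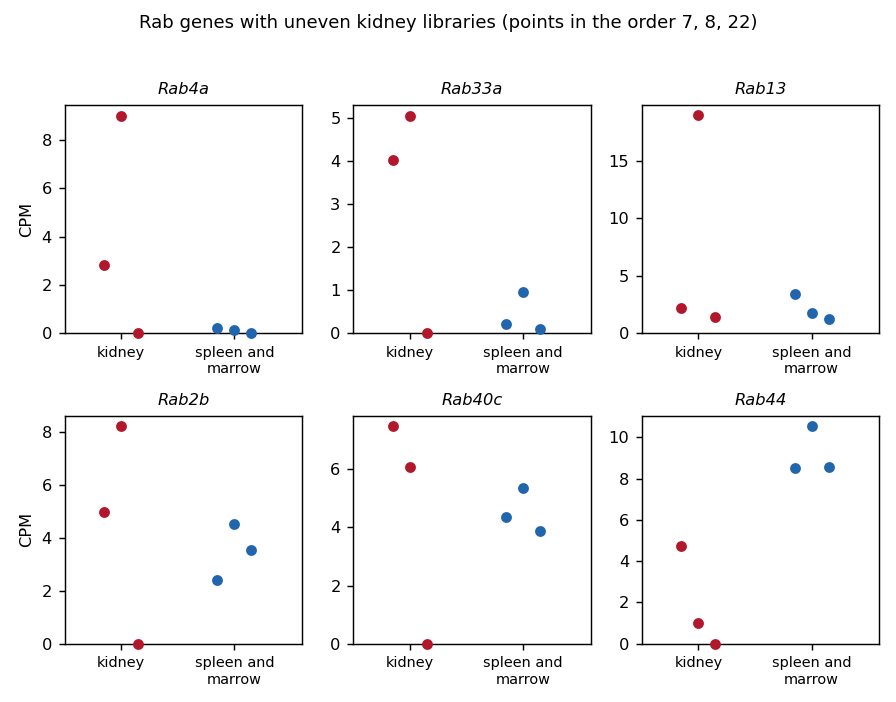
CPM of 6 Rab genes with uneven kidney libraries, each point 1 library (kidney in the order 7, 8, 22, spleen and marrow in the order 2, 24, 26). Rab4a, Rab33a, Rab2b, Rab40c and Rab44 are at 0 in kidney replicate 22, and Rab13 is high in kidney replicate 8 alone.

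The remaining 12 members that were not tested had 22 counts or fewer in each group. Epithelial members were rare. Rab25 had 10 counts in kidney replicate 7, none in kidney replicates 8 and 22, and 1 in spleen and marrow replicate 2, while Rab17 had 5 counts in all kidney libraries and none in spleen and marrow. The 11 kidney tubule markers summed to 191, 85.6 and 563 CPM in kidney replicates 7, 8 and 22 and to 0.919, 1.09 and 0.857 CPM in spleen and marrow, and their part in Rab25 and Rab17 was not tested. Rab42 had 22 counts in kidney and 10 in spleen and marrow, and Rab6b 17 and 8. Rab15, Rab30, Rab40b and Rab3b had 6, 7, 4 and 8 counts in kidney and 0, 4, 0 and 5 in spleen and marrow. Rab39b had 1 and 6, Rab26 0 and 1, Rab3c 0 and 2, and Rab9b had no count in any library, which allows between 0.322 and 0.881 CPM per library.

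Partners of the Rab proteins were measured beside them. Of 34 tested exchange factor genes (39 in the list) 2 rose, 5.88% against the 13.7% of all genes tested. Rab3il1, an exchange factor for Rab3a and Rab8 proteins, stood at 69.4, 71.8 and 86.9 CPM in kidney, against 10.8, 6.43 and 9.22 CPM in spleen and marrow. Its log2 fold change of 3.10 ± 0.25 (edgeR adjusted p = 0.000634) was larger than that of any tested Rab gene, and the call held in all 16 alternatives with adjusted p of at most 0.00937. Sbf2, an exchange factor for Rab21 and Rab28, stood at 9.36, 8.34 and 22.3 CPM in kidney, against 1.26, 1.78 and 1.29 CPM in spleen and marrow. It rose by a log2 fold of 3.18 ± 0.53 (edgeR adjusted p = 0.00834) and passed in 13 of 16 alternatives, with adjusted p of up to 0.0632.

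Of 33 tested GTPase activating genes (37 in the list) 2 rose and 1 fell, 9.09% against the 13.7% of all genes tested. Tbc1d9 stood at 34.5, 26.03 and 19.97 CPM in kidney, against 11.9, 11.6 and 12.1 CPM in spleen and marrow (log2 fold change 1.18 ± 0.27, edgeR adjusted p = 0.0281). Tbc1d16, which acts on Rab4a, stood at 1.66, 3.79 and 19.1 CPM in kidney, against 0.230, 0.547 and 0 CPM in spleen and marrow (log2 fold change 4.92 ± 1.27, edgeR adjusted p = 0.0400). Tbc1d16 passed the filter through the kidney libraries only. Kidney replicate 22 was far above the other kidney libraries, and without it the log2 fold change was 3.39 (edgeR adjusted p = 0.0294). Kidney tubule markers (191, 85.6 and 563 CPM) and neutrophil markers (1078, 4280 and 43751 CPM) were also highest in that library among the kidney libraries. Their part in Tbc1d16 and Sbf2 was not tested. Tbc1d10c, which also inhibits calcineurin, fell to 3.20, 4.17 and 2.64 CPM in kidney against 12.6, 14.6 and 14.6 CPM in spleen and marrow (log2 fold change -2.04 ± 0.35, edgeR adjusted p = 0.00881). These calls held in 9, 9 and 12 of 16 alternatives, with adjusted p of up to 0.229, 0.223 and 0.0723.

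Of the 10 genes of Rab lipid modification and recovery, 1 rose, 10.0% against the 13.7% of all genes tested. Gdi2, which extracts Rab proteins from membranes, stood at 237, 206 and 242 CPM in kidney, against 157, 152 and 169 CPM in spleen and marrow. The difference was small, 0.52 ± 0.13 on the log2 scale (edgeR adjusted p = 0.0391), and the call held in 8 of 16 alternatives, with adjusted p of up to 0.211. Of 53 tested effector and tether genes (70 in the list) 2 rose, 3.77% against the same 13.7%. Rabep1, which binds Rab5 and Rab4 on early endosomes, stood at 65.8, 51.8 and 75.8 CPM in kidney, against 33.2, 30.4 and 30.4 CPM in spleen and marrow. It rose by a log2 fold of 1.04 ± 0.20 (edgeR adjusted p = 0.0132). Myo5a, the motor that Rab27a engages through an adaptor, stood at 54.9, 45.4 and 53.7 CPM in kidney, against 31.2, 35.4 and 26.2 CPM in spleen and marrow, without overlap. It rose by 0.73 ± 0.20 (edgeR adjusted p = 0.0476). Their calls held in 10 and 6 of 16 alternatives, with adjusted p of up to 0.0924 and 0.367. Of the adaptors in the list, Mlph had no count in any library, and Myrip had 3 counts, all in kidney replicate 7. The medians of the log2 fold change were 0.29, 0.13, 0.24 and 0.33 for exchange factors, GTPase activating, lipid modification and effector genes, against 0.05 for all genes tested.

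**Figure D5:**
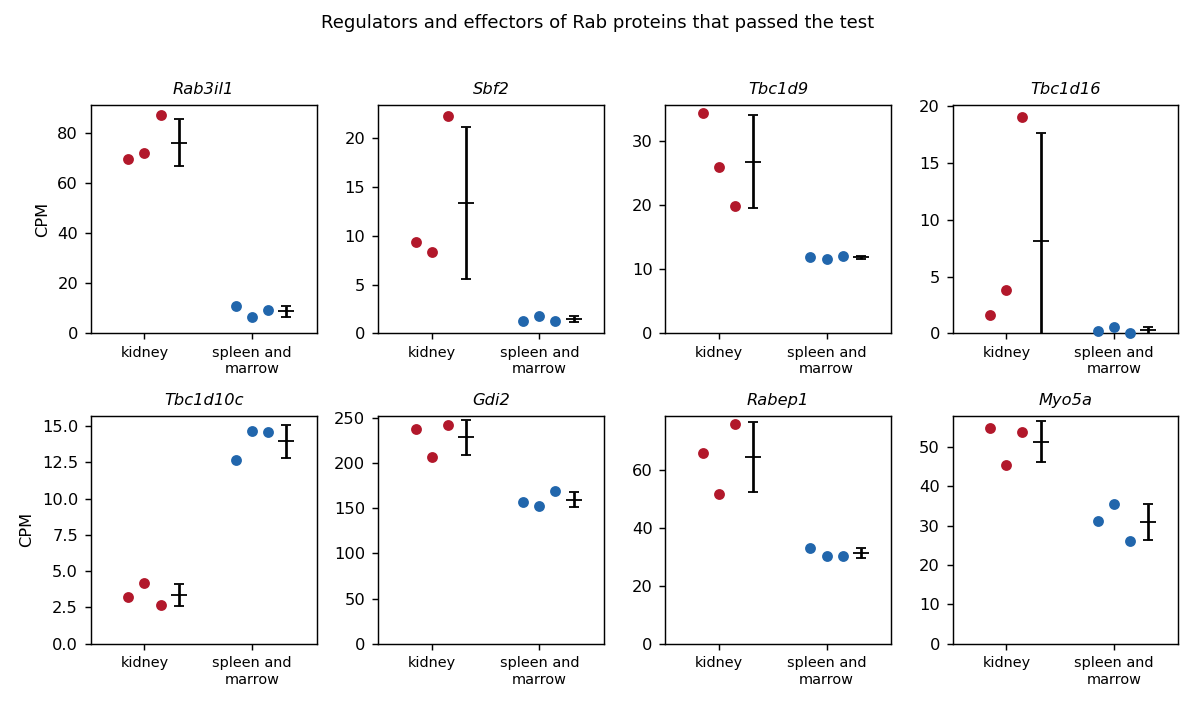
CPM of the 8 Rab regulator and effector genes that passed the test, each point 1 library (kidney in the order 7, 8, 22 and spleen and marrow in the order 2, 24, 26), with mean and SD beside them (n = 3 each). Tbc1d10c is lower and the other 7 are higher in kidney, and kidney replicate 22 stands above the other kidney libraries for Sbf2 and Tbc1d16.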

How the data were processed

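RNA of sorted cells (2 ng) was made into full-length cDNA with SMART-Seq v4 reagents and sheared to about 150 bp, per the labels' protocols. The submitters' processing notes name bcl2fastq 2.18, STAR 2.5, Cufflinks 2.2.1 and mm9, with no role for each, and the counting program is not given in the sources used here. The deposited counts are raw whole numbers per gene symbol (24047 rows, of which 92 spike-in rows hold no count and were left out). The authors' deposited FPKM values (24043 rows) served for levels between genes and as an alternative. They were not used for the main test, since a single microRNA row, Mir6236, takes a large part of their sum. It took 6.96%, 8.25% and 9.82% in kidney replicates 7, 8 and 22. In spleen and marrow replicates 2, 24 and 26 it took 17.1%, 17.1% and 17.8%. FPKM values compared between the groups, in means or in the FPKM alternatives, carry that difference.

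Counts were filtered with filterByExpr, scaled by TMM and tested with edgeR 4.0.16 in R 4.3.3 (glmQLFit, glmQLFTest, two-sided), with kidney over spleen and marrow and a call at an adjusted p under 0.05 over 10626 genes. The script was tested on simulated data. CPM values use the TMM-adjusted library size. The standard error is the log2 fold change divided by the square root of F, and 95% intervals use the fit's t quantile. Pooled ratios (20 counts or more) and floors of 3 counts cover counting error only. Alternatives used DESeq2 1.42.0, limma 3.58.1, other scalings and filters, FPKM, and leaving out each library. Members and lists were chosen with earlier results of these data known. All members are named, with all called regulators up to 3 per list and direction. Exon overlaps and promoters come from GENCODE M21 and RefSeq on GRCm38, and 46 of 57 members had a promoter. No column lacked a sample. Figures were drawn with matplotlib 3.10.9.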

Additional observations from a re-analysis of the deposited data

How the results depend on the processing

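Rab20 and Rab27a were the Rab calls made under all 16 alternatives. No Rab gene called with all libraries changed sign in any of them. Rab genes higher in kidney numbered 3, and 1 with no filter, on log2(FPKM + 1), on log2(FPKM + 0.1) or with spleen and marrow replicates 24 and 26 summed, 2 with RLE size factors or limma-voom, 6 with sample weights, and 1 to 7 on leaving out a library (7 without kidney replicate 22). Rab genes lower numbered 1, and 3 with DESeq2, 2 with limma-voom, 5 with sample weights, 3 on log2(FPKM + 1), 2 on log2(FPKM + 0.1), and 1 to 3 on leaving out a library. Exchange factors higher numbered 2, and 3 with sample weights, 1 with the sum of 24 and 26 and 1 to 5 on leaving out a library, and those lower 0, and 1 with DESeq2 or on either FPKM scale and 0 to 1 on leaving out a library. GTPase activating genes higher numbered 2, and 1 with limma-voom, 4 with sample weights, 0 on either FPKM scale or with the sum, and 0 to 4 on leaving out a library. Those lower numbered 1, and 2 with DESeq2 or limma-voom, 3 with sample weights, 0 with the sum, and 0 to 3 on leaving out a library. Lipid modification genes higher numbered 1, and 0 with no filter, on either FPKM scale or with the sum, 0 to 1 on leaving out a library, and those lower 0, or 0 to 1. Effectors higher numbered 2, and 5 with DESeq2, 3 with limma-voom, 1 with RLE size factors, 8 with sample weights, 0 on either FPKM scale or with the sum, and 0 to 12 on leaving out a library. Those lower numbered 0, and 2 with DESeq2, 1 with sample weights, and 0 to 2 on leaving out a library. Among the libraries left out, the highest counts of higher exchange factor, GTPase activating and effector genes came without kidney replicate 22. No GTPase activating gene passed without spleen and marrow replicate 2, 24 or 26. Sums and left-out libraries leave fewer samples, and other causes were not tested. No paired analysis was possible because the groups share 0 replicate numbers. Depth limits members near 3 counts, most of all in kidney replicate 22.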

Other observations

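The deposited counts and FPKM disagree on the level of Rab7. Dividing each tested gene's mean CPM by the length of its longest coding transcript in GENCODE M21 gives a second level per length. The authors' FPKM of Rab7 was 7.72 times higher than that level, relative to the median ratio over 10208 genes, at percentile 99.1 of them. Rab7 ranked 3 of 40 tested members by FPKM and 12 by counts per length. Rab22a, Rab21, Rab8a and Rab20 stood at 3.68, 2.42, 2.36 and 1.86 times, and Rab24 at 0.669 times. Rab20 ranked 14 of 40 by FPKM and 20 by counts per length. The choice of transcript length and of build enters these ratios, and the cause was not tested.

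Correlations of log2(CPM + 1) over the 40 tested Rab genes, given as a description across genes that are not independent replicates, ran from 0.923 to 0.960 between kidney libraries, from 0.993 to 0.995 between spleen and marrow libraries, and from 0.885 to 0.954 between the groups.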
